A study of Mus musculus with 16 samples.

Results

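The 8 genes described here, *Ltf*, *Greb1*, *Ccnd1*, *Myc*, *Wnt4*, *Xbp1*, *Clu* and *Sprr2f*, are classic oestrogen-induced genes. They were chosen by name, for a response to oestrogen that is best known from the uterus and from breast cancer cells, and all 8 were found among the 31274 genes of the expression table. The question asked of them was whether they were on in the seminal vesicle (SV) about 4 weeks after neonatal oestrogen dosing had ended, and whether any change needed oestrogen receptor α (ERα). RNA was sequenced from whole SVs of male C57BL/6 mice at 5 weeks of age, in 4 groups of 4 samples. WT-veh mice were wild type and had corn oil, the vehicle, injected under the skin on days 1 to 5 of life. WT-DES mice were wild type and had diethylstilbestrol (DES), a synthetic oestrogen, in corn oil at 2 µg per pup per day on the same days. The αERKO-veh and αERKO-DES mice had the same injections and carry a disrupted *Esr1*, the gene for ERα, in every cell from conception. Loss of ERα during dosing and loss of ERα in the 5-week-old gland therefore cannot be told apart. By the methods, WT pups came from purchased pregnant females and αERKO pups from breeding heterozygotes, so genotype and breeding source cannot be told apart. The methods for RNA extraction describe individual mice for WT-veh and both αERKO groups and 3 pools of mice for WT-DES, whereas those for RNA-seq give 4 samples per group, as the table does. The p-values below measure the spread between these samples.

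ERα is a transcription factor that an oestrogen switches on by binding to it. It acts on genes by contacting DNA at oestrogen response elements, which are built from inverted copies of a short half-site, or indirectly through other factors such as AP-1. In the uterus, 1 injection of an oestrogen raises secreted defence proteins, regulators of the cell cycle and genes of squamous differentiation within hours to days, and the response fades as the hormone is cleared. The SV is an androgen-driven secretory gland of the male, whose epithelium makes most of the proteins of the seminal fluid.

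*Esr1* itself checks the genotype labels. Its level, in FPKM (sequenced fragments scaled to transcript length and library size), was 4.43, 4.55, 3.70 and 2.81 in WT-veh and 8.74, 19.6, 12.99 and 15.7 in WT-DES. In the αERKO samples it was 1.30, 1.59, 1.75 and 1.43 with vehicle and 0.91, 1.15, 1.51 and 1.64 with DES. Every αERKO sample lay below every WT sample, and transcript was still detected in all of them.

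As series-wide facts, FPKM give no fragment counts, so the number of fragments behind each value is unknown. The most common non-zero FPKM among the 1113 olfactory receptor genes, which are nearly silent in the SV, was 0.05 or 0.06 in every sample. Summed over genes, FPKM came to 590446 to 652708 per WT-veh sample and 375207 to 437619 per WT-DES sample. limma was fitted to log2(FPKM + 1) over the 16 samples together. It covered the 15988 genes whose mean FPKM exceeded 1 in some group, with Benjamini-Hochberg adjustment across them. A gene was called where the adjusted p was at most 0.05 and the ratio of mean FPKM at least 1.5. Differences given as log2 are on the log2(FPKM + 1) scale, on which low genes move less than their FPKM do. The interaction is the DES change of WT, in log2, less the DES change of αERKO. In whole tissue, fewer cells of a type and less RNA per cell cannot be told apart.

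All 8 genes passed this minimum and were tested. On, in the sense of a mean FPKM above 1, were all 8 genes in WT-DES and αERKO-veh and 7 of the 8 in WT-veh and αERKO-DES, where the exception was *Greb1*. Of all genes in the table, 49.2% and 45.8% were on in the former 2 groups and 45.5% and 44.2% in the latter. Each of 2 calls of on rested on 1 sample, the highest of its group: without it the mean was 0.607 for *Sprr2f* in αERKO-DES and 0.81 for *Greb1* in αERKO-veh. The other 6 genes were on in all 4 groups, also without the highest sample of each. In WT-DES relative to WT-veh, 4 of the 8 genes were called higher (*Ltf*, *Sprr2f*, *Greb1* and *Clu*), 3 were called lower (*Ccnd1*, *Myc* and *Xbp1*) and *Wnt4* was not called. With a mean under 1 in WT-veh, *Greb1* could be called there only as higher. Of all genes tested, 52.7% were called in this comparison, 28.9% higher and 23.9% lower (4613 and 3815 genes, and 6953 and 1831 after rescaling without the 20 most abundant genes). Within αERKO, limma called 0 of the 8 with DES, against 1.49% of all genes, and 2 of the 8 (*Myc* and *Sprr2f*) had an unadjusted p under 0.05, as had 25.3% of all genes. The interaction was called for 6 of the 8, 3 positive and 3 negative, the exceptions being *Clu* and *Wnt4*. It was called for 56.4% of all genes, 29.6% positive and 26.9% negative. The 7 genes called in WT-DES were the 7 whose WT-DES and WT-veh samples did not overlap, and 66.7% of all genes had no overlap there. The median absolute log2 change of the 8 genes was 1.26 in WT and 0.22 in αERKO, beside 0.59 and 0.16 for all genes tested. Against a background this high, the counts of the 8 genes are a description and show nothing particular to oestrogen targets.

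**Figure D1:**
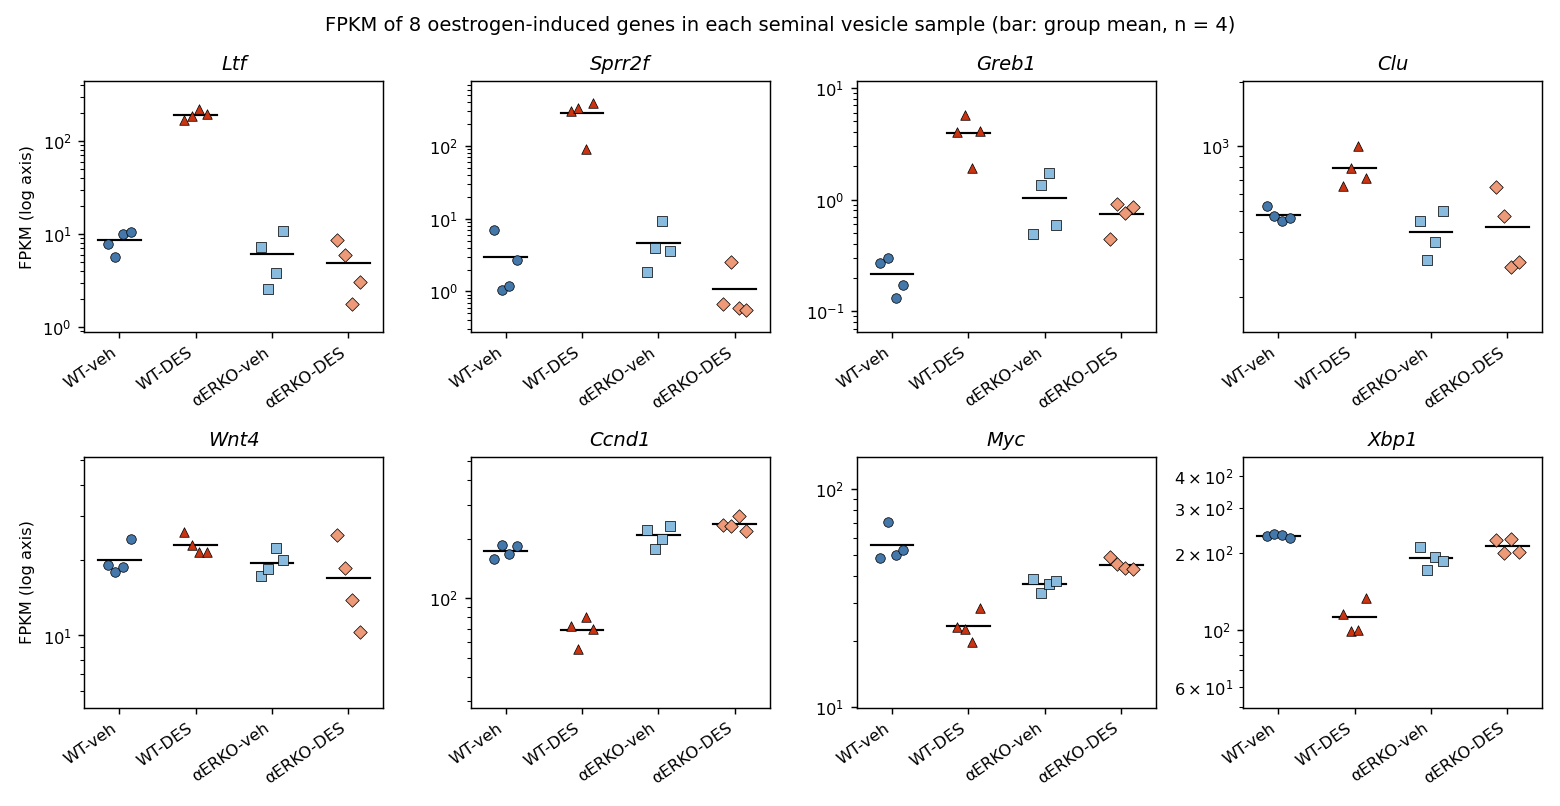
FPKM of the 8 genes (log axis, a panel per gene) in each of the 16 samples, by group, with a bar at the group mean (n = 4). The WT-DES samples stand above all others for Ltf (167 to 221), Sprr2f (90.4 to 394), Greb1 (1.92 to 5.75) and Clu (652 to 1006) and below all others for Ccnd1, Myc and Xbp1, while the groups overlap for Wnt4.

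Promoter sequences are shown for *Ltf*, *Greb1* and *Sprr2f*, the genes with the largest rise among the 8, to let the bases before each start site be read beside the values. RefSeq promoters were matched for 5 of the 8 genes, by symbol, and the 250 bases before each start site (GRCm38.p6) are printed 5′ to 3′ on the strand of the gene. Capitals mark a half-site of the oestrogen response element (GGTCA, or TGACC on the other strand) or an AP-1 site (TGANTCA). The promoter of *Ltf* is at chr9:111019042-111019291 on the plus strand, that of *Greb1* at chr12:16800887-16801136 on the minus strand and that of *Sprr2f* at chr3:92364937-92365186 on the plus strand.
Ltf: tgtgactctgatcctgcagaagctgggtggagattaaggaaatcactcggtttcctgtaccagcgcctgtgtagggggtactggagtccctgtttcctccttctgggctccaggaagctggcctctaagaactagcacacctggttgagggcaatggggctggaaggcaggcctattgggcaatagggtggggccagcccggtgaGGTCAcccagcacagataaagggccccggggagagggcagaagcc
Greb1: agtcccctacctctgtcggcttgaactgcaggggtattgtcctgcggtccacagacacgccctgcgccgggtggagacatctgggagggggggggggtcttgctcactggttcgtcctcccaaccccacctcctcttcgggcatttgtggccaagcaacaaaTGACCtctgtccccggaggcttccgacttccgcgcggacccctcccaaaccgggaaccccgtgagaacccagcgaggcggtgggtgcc
Sprr2f: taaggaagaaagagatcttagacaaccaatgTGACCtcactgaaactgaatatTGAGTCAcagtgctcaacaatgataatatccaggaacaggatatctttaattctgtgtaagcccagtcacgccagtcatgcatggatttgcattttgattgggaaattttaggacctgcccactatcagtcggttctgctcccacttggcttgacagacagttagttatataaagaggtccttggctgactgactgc
The half-site began 45 bases before the start site in *Ltf*, 88 bases before it in *Greb1* and 219 bases before it in *Sprr2f*. An AP-1 site, TGAGTCA, began 197 bases before the start of *Sprr2f*. A 2nd promoter of *Greb1* held 2 half-sites, and those of *Wnt4* and *Xbp1* held neither motif. The whole palindrome, GGTCANNNTGACC, was in none of these windows. Among all 32817 promoters, searched on both strands, 35.2% held a half-site, 6.75% an AP-1 site and 0.0640% the palindrome. A match describes letters in the window only. Gene positions below are from GENCODE M21 on GRCm38, the build of the alignment.

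*Ltf* (chr9:111019271-111042767, plus strand) encodes lactoferrin, an iron-binding defence protein of secretions and of neutrophil granules, and is the best-known oestrogen-raised protein of the mouse uterus. Its FPKM was 7.90, 5.68, 9.99 and 10.5 in WT-veh and 167, 185, 221 and 193 in WT-DES. In αERKO it was 7.29, 2.59, 3.80 and 10.8 with vehicle and 8.60, 5.92, 1.76 and 3.08 with DES. All WT-DES samples stood far above the other 12, which overlapped one another. The mean rose from 8.53 ± 2.21 (SD, n = 4) in WT-veh to 192 ± 22.7 in WT-DES, a ratio of 22.5, which moved *Ltf* from above 71.5% of the genes in the table to above 99.4%. On the log2 scale the rise was 4.36 (standard error 0.38, limma adjusted p = 1.08e-07), the 16th largest of the 15988 genes tested. In αERKO the log2 difference was −0.29 (95% interval −1.10 to 0.51, adjusted p = 0.661), and the interaction was 4.66 (adjusted p = 2.82e-06). Over the alternatives other than leaving out a sample, this αERKO difference of *Ltf* ran from −0.90 to −0.13. Its limma adjusted p ran from 0.0254 to 0.902, and it was not called in any of them.

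Neutrophil markers moved with *Ltf*. The summed FPKM of the 10 listed markers in the table was 990, 119, 122 and 236 in its 4 samples, against 3.26 to 5.38 in WT-veh and 1.23 to 3.05 over both αERKO groups. Of these markers 8 had a mean above 1 in WT-DES alone, so that the minimum fixed their direction, and the other 2, *S100a8* and *Retnlg*, were called higher there (28.9% of all genes). *Ltf* was lowest in the WT-DES sample in which that sum was highest. *Ngp* and *Camp*, which are made with *Ltf* in maturing neutrophils, reached 3.59 to 34.2 and 1.89 to 17.6 FPKM in WT-DES. The part of neutrophils in the rise of *Ltf* was not tested. The related transferrin gene, *Trf*, rose by 1.81 in WT-DES (limma adjusted p = 0.000683), from a mean of 40.3 to 139 FPKM.

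*Sprr2f* (chr3:92365187-92366442, plus strand) encodes a small proline-rich protein of the cornified envelope, the cross-linked shell of squamous cells, and is among the strongest early oestrogen responses of the mouse uterus. Its FPKM was 7.04, 1.04, 1.18 and 2.69 in WT-veh and 309, 337, 90.4 and 394 in WT-DES. The αERKO values were 1.85, 3.93, 9.37 and 3.56 with vehicle and 0.67, 2.52, 0.60 and 0.55 with DES. The 3rd WT-DES sample was well below its other three, yet still far above 9.37, the highest value of any other group. The mean was 2.99 ± 2.80 (SD, n = 4) in WT-veh and 283 ± 133 in WT-DES, a ratio of 94.6. The log2 rise of 6.19 (standard error 0.53, limma adjusted p = 8.75e-08) was the 2nd largest of all genes tested, and the interaction, 7.57 (adjusted p = 6.6e-07), was the largest. In αERKO the DES difference pointed the other way, at −1.38 (95% interval −2.50 to −0.26 before adjustment), and was not called (adjusted p = 0.130).

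Of the 15 Sprr relatives listed, 14 were in the table and 10 passed the minimum. Of these 10, 7 had a mean above 1 in WT-DES alone, so that the minimum fixed their direction, and no count over them is given. The other 3, *Sprr1a*, *Sprr2a1* and *Sprr2a2*, were on in every group and were called higher in WT-DES (28.9% of all genes). Within αERKO, the 3 could be called and limma called 0 of them with DES (1.49% of all genes), 1 having an unadjusted p under 0.05 (25.3% of all genes). The 7 had means under 1 in both αERKO groups and could not be called there. *Sprr3* (log2 1.85, limma adjusted p = 0.0597) and *Sprr1b* (log2 1.17, limma adjusted p = 0.0657) were not called in WT-DES. *Sprr2d* was 0.70, 0.59, 0.18 and 0.09 FPKM in WT-veh and 124, 72.8, 4.27 and 139 in WT-DES, a log2 rise of 5.22 (limma adjusted p = 1.17e-05). *Sprr2g* went from 0.39 to 0.78 in WT-veh to 15.4 to 56.8 in WT-DES (log2 4.33, limma adjusted p = 1.01e-08) and *Sprr1a* from 11.0 to 68.6 to 160 to 832 (log2 3.45, limma adjusted p = 0.000320). For *Sprr2i* the WT-veh samples and 1 WT-DES sample were listed at 0, and the remaining WT-DES samples had 4.39, 2.57 and 9.67 FPKM. The 3rd WT-DES sample was the lowest of its group for *Sprr2f*, *Sprr2d*, *Sprr1a* and *Sprr2i*, whereas the 1st was the lowest for *Sprr2g* and the 2nd for *Sprr2a1* and *Sprr2a2*. Cross-counting between *Sprr2f* and these relatives was checked for identical sequence only. No window as long as a read in the *Sprr2f* transcript (0 of 484) was shared with another Sprr transcript of the annotation, and 4 of 560 windows of 50 nt were shared with *Sprr2e*. Near-identical windows were not counted, and no pair without *Sprr2f* was checked, so the calls of *Sprr2a1* and *Sprr2a2* may not be separate.

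**Figure D2:**
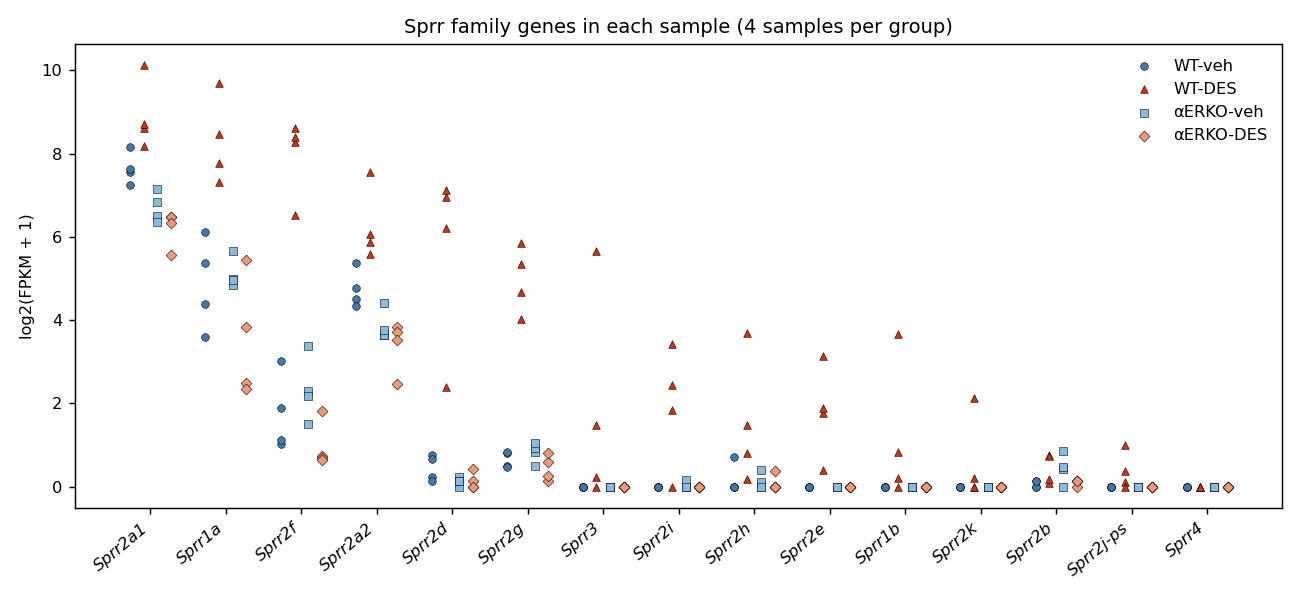
log2(FPKM + 1) of Sprr2f and the 14 Sprr relatives in the table, in each sample (4 per group). All WT-DES samples lie above every other sample for Sprr2f, Sprr1a, Sprr2a1, Sprr2a2, Sprr2d, Sprr2e and Sprr2g, and the groups overlap for the remaining genes. The 3rd WT-DES sample lies well below the rest of its group for Sprr2f (90.4 FPKM) and Sprr2d (4.27 FPKM).

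Squamous epithelium markers moved with *Sprr2f* as well. The listed 6 (*Krt1*, *Krt10*, *Krt13*, *Krt6a*, *Ivl* and *Lor*) summed to 197, 63.8, 37.9 and 345 FPKM in the WT-DES samples, 4.38 to 7.72 in WT-veh and 3.47 to 6.87 over both αERKO groups. *Krt1*, *Krt13* and *Krt6a* had a mean above 1 in WT-DES alone, so that the minimum fixed their direction, and 2 of the other 3 were called higher there (28.9% of all genes). The sum was lowest in the same WT-DES sample as *Sprr2f* and highest in the sample with the most *Sprr2f*. The part of squamous cells in the rise of *Sprr2f* was not tested.

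*Greb1* (chr12:16670615-16800886, minus strand) encodes an ERα cofactor that is itself a direct ERα target, and it is the member with the lowest level. Its FPKM was 0.27, 0.30, 0.13 and 0.17 in WT-veh and 4.01, 5.75, 1.92 and 4.10 in WT-DES. In αERKO it was 0.49, 1.35, 1.72 and 0.59 with vehicle and 0.44, 0.91, 0.76 and 0.85 with DES. WT-DES stood above every other sample, and both αERKO groups stood above every WT-veh sample. The mean was 0.218 ± 0.0806 (SD, n = 4) in WT-veh and 3.95 ± 1.57 in WT-DES, a ratio of 18.1 and a log2 rise of 1.96 (standard error 0.23, limma adjusted p = 2.42e-06). With DES in αERKO the log2 difference was −0.19 (95% interval −0.68 to 0.31, adjusted p = 0.641), and the interaction was 2.15 (adjusted p = 3.85e-05). With a pseudocount of 0.1 the *Greb1* rise was 3.61 and its interaction 3.93. Without DES, αERKO exceeded WT by 0.70 (adjusted p = 0.0387, ratio 4.77), a call that was lost on leaving out any WT-veh sample or the 2nd or 3rd αERKO-veh sample (adjusted p 0.0527 to 0.118) and on removing the length trend (log2 0.41, adjusted p = 0.240), under quantile normalization (adjusted p = 0.0642), with no FPKM minimum (adjusted p = 0.0540) and at an adjusted p of at most 0.01.

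*Clu* (chr14:65968483-65981547, plus strand) encodes clusterin, a secreted chaperone that is abundant in male reproductive tract fluids. Its FPKM was 529, 475, 451 and 463 in WT-veh and 652, 796, 1006 and 714 in WT-DES. In αERKO it was 448, 295, 359 and 498 with vehicle and 646, 473, 273 and 289 with DES. *Clu* was high in every group, above 99.6% of genes in WT-veh, and the WT-DES samples were above all others by a small margin, 652 against 646 at the nearest. The mean rose from 480 ± 34.2 (SD, n = 4) to 792 ± 154, a ratio of 1.65 and a log2 rise of 0.71 (standard error 0.24, limma adjusted p = 0.0166). Without the 3rd WT-DES sample it was not called (log2 0.58, adjusted p = 0.0550). In αERKO the log2 difference was 0.01 (95% interval −0.51 to 0.53, adjusted p = 0.994). The interaction, 0.70, was not called (adjusted p = 0.0810), so that a difference of the DES change between genotypes was not shown for *Clu*. It was called without the 2nd αERKO-veh sample (0.84, adjusted p = 0.0446) or the 1st αERKO-DES sample (0.94, adjusted p = 0.0109). Under quantile normalization the *Clu* rise was 2.35 and its interaction 2.54, which was called.

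*Wnt4* (chr4:137277489-137299726, plus strand) encodes a secreted Wnt ligand that acts in uterine growth and gland formation. Its FPKM was 19.0, 17.9, 18.7 and 24.3 in WT-veh and 25.8, 23.03, 21.5 and 21.6 in WT-DES. In αERKO it was 17.4, 18.4, 22.4 and 19.95 with vehicle and 25.2, 18.7, 13.9 and 10.3 with DES. The groups overlapped in both genotypes. *Wnt4* differed by 0.20 in WT (95% interval −0.21 to 0.61, limma adjusted p = 0.355), an interval that reaches to about a 1.5-fold rise, and by −0.25 in αERKO (95% interval −0.66 to 0.15, adjusted p = 0.422). Between the DES groups it was lower in αERKO by 0.48 (adjusted p = 0.0333) at a ratio of mean FPKM under 1.5, and without the 1st αERKO-DES sample, the highest of its group, that difference was called (−0.69, adjusted p = 0.00136), as was the interaction (0.66, adjusted p = 0.0141).

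*Ccnd1* (chr7:144929931-144939925, minus strand) encodes cyclin D1, which drives entry into the cell cycle. It stood at 158, 186, 169 and 184 FPKM in WT-veh and 72.4, 55.5, 80.0 and 69.5 in WT-DES. The αERKO samples had 224, 179, 201 and 233 with vehicle and 238, 232, 263 and 220 with DES. Every WT-DES sample was below every other sample, with a wide gap. The mean fell from 174 ± 13.3 (SD, n = 4) to 69.3 ± 10.2 in WT, 2.52 times lower (log2 −1.33, standard error 0.11, limma adjusted p = 7.13e-08). In αERKO it differed by 0.19 (95% interval −0.04 to 0.43, adjusted p = 0.289), and the interaction was −1.52 (adjusted p = 1e-06). Under quantile normalization the *Ccnd1* fall was −0.72 and its interaction −0.70, both still called.

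*Myc* (chr15:61985391-61990374, plus strand) encodes a transcription factor of growth and proliferation whose transcript rises within hours of an oestrogen dose in the uterus. Its FPKM was 48.3, 70.7, 50.1 and 52.5 in WT-veh and 23.3, 22.9, 19.8 and 28.5 in WT-DES. In αERKO it was 38.8, 33.4, 36.6 and 37.8 with vehicle and 48.6, 45.3, 43.5 and 43.1 with DES. WT-DES samples were the lowest, αERKO-veh samples came next with no overlap on either side, and WT-veh held the highest value. In WT the mean fell from 55.4 ± 10.3 (SD, n = 4) to 23.6 ± 3.62, 2.35 times lower (log2 −1.19, standard error 0.12, limma adjusted p = 3.32e-07). In αERKO all DES samples were above all vehicle samples, as in 6.4% of all genes tested in that direction, with a log2 difference of 0.29 (95% interval 0.05 to 0.54 before adjustment) that was not called (adjusted p = 0.140), and the interaction was −1.48 (adjusted p = 1.94e-06). Rescaling without the 20 most abundant genes gave a *Myc* fall of −0.77 and an interaction of −0.93, both still called. αERKO-veh was lower than WT-veh by 0.57 (adjusted p = 0.00739, 1.51 times lower), and without the 2nd WT-veh or the 2nd αERKO-veh sample the ratio no longer reached 1.5. The call was also lost under median-ratio scaling, quantile normalization, rescaling without the 20 most abundant genes and removal of the length trend (log2 −0.55 to −0.39).

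*Xbp1* (chr11:5520659-5525893, plus strand) encodes a transcription factor of the unfolded protein response that secretory cells need, and it is a direct ERα target in breast cancer cells. It stood at 232, 237, 235 and 228 FPKM in WT-veh and 116, 99.3, 99.5 and 134 in WT-DES. In αERKO it was 210, 172, 193 and 186 with vehicle and 225, 200, 226 and 202 with DES. The WT-veh samples were close together, the WT-DES samples lay far below all others, and the αERKO groups lay in between and overlapped each other. In WT the mean fell from 233 ± 4.07 (SD, n = 4) to 112 ± 16.4, 2.08 times lower (log2 −1.06, standard error 0.09, limma adjusted p = 1.2e-07). Within αERKO it differed by 0.17 (95% interval −0.03 to 0.36, adjusted p = 0.278). The interaction was −1.23 (adjusted p = 1.5e-06). Under quantile normalization the *Xbp1* fall was −0.34, its interaction −0.31 and its difference between the DES groups 0.33 (0.93 as reported), and 0 of these 3 were called. αERKO-veh was below WT-veh by 0.29 (adjusted p = 0.0316), under 1.5-fold.

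**Figure D3:**
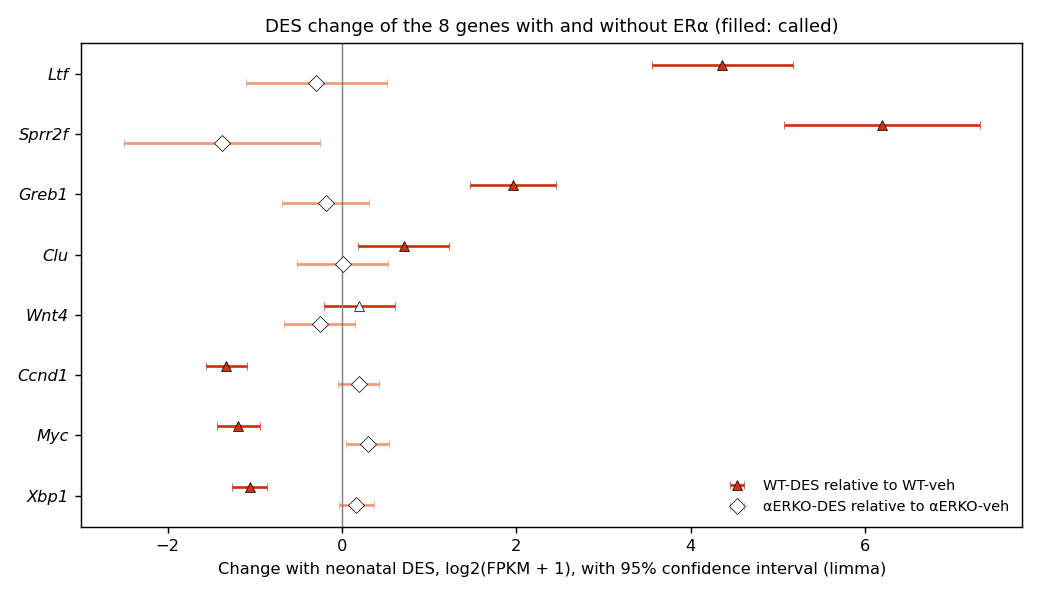
Change of each of the 8 genes with neonatal DES on the log2(FPKM + 1) scale, with its 95% confidence interval from limma, in WT (triangles) and in αERKO (diamonds), filled where called. In WT the changes run from 6.19 for Sprr2f to −1.33 for Ccnd1 and 7 are filled, whereas 0 of the αERKO changes are filled.

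Several marker lists moved with the 3 genes that fell. The 9 markers of SV secretion summed to between 53248 and 62325 FPKM in WT-veh against 2503 and 8179 in WT-DES. The αERKO sums ran from 32876 to 51641 with vehicle and from 36791 to 69495 with DES, and all 9 were called lower in WT-DES. Of all genes, 23.9% were called lower and 28.9% higher in that comparison. Of 6 epithelium markers 5 were called lower, with sums of 1459 to 1610 in WT-veh and 765 to 1062 in WT-DES. Over the same samples 6 cell division markers summed to between 35.9 and 59.0 in WT-veh and to between 28.7 and 57.2 in WT-DES, which overlap, and 1 of the 6 was called higher and 0 lower. Of 4 basal epithelium markers, 2 were called higher and 0 lower, with sums of 168 to 245 in WT-veh and 248 to 533 in WT-DES, and squamous epithelium markers were higher, as given above. Anterior prostate markers were called lower in 4 of 4, with sums of 3810 to 4359 in WT-veh and 28.9 to 334 in WT-DES. Smooth muscle markers were called lower in 4 of 5 and fibroblast markers higher in 6 of 6. The part of these cell types and of prostate tissue in the fall of *Ccnd1*, *Myc* and *Xbp1* was not tested.

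**Figure D4:**
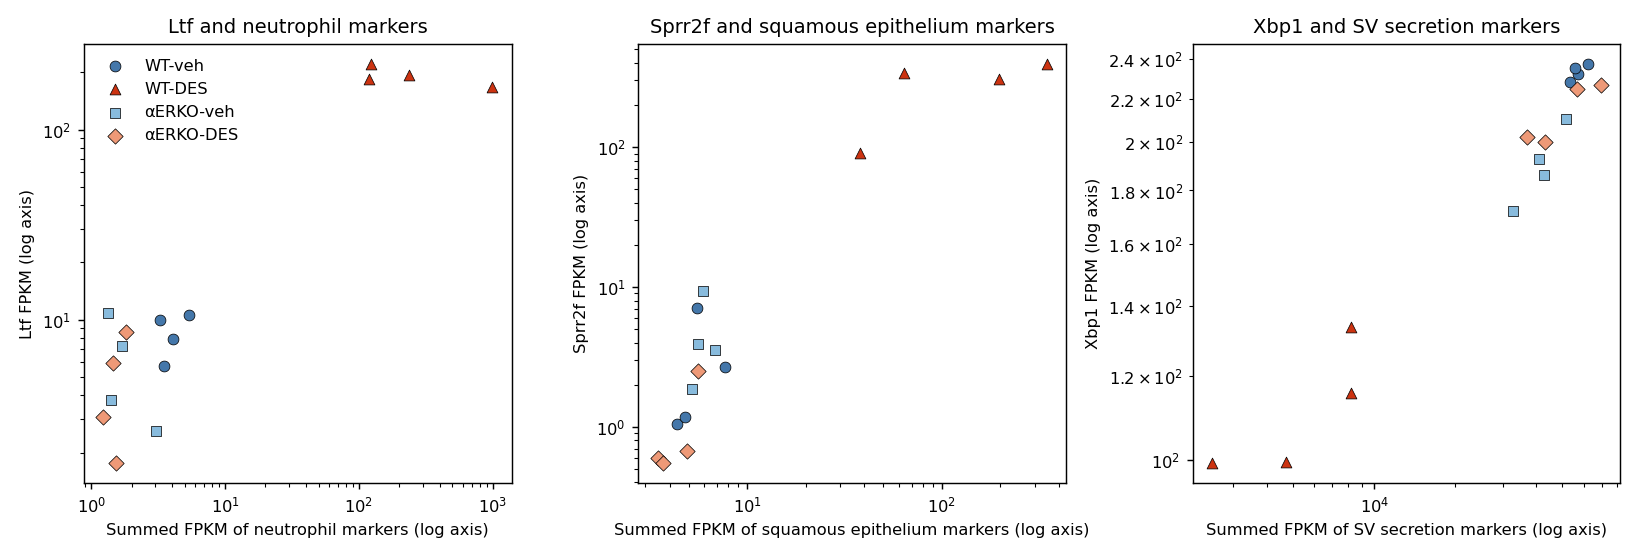
Ltf against the summed FPKM of 10 neutrophil markers, Sprr2f against that of 6 squamous epithelium markers and Xbp1 against that of 9 SV secretion markers, a point per sample, all axes logarithmic. Ltf is lowest among the WT-DES samples (167 FPKM) where the neutrophil sum is highest (990 FPKM), and Sprr2f is lowest (90.4 FPKM) where the squamous sum is lowest (37.9 FPKM).

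Of 9 relatives of the members listed, 7 were tested. *Mycn* and *Wnt11* had a mean above 1 in WT-DES alone, so that the minimum fixed their direction. Of the other 5, 3 were called higher in WT-DES and 0 lower, beside 28.9% and 23.9% of all genes. Within αERKO, limma called 0 of the same 5 with DES (1.49% of all genes), and 2 had an unadjusted p under 0.05 (25.3% of all genes). *Ccnd2*, another D-type cyclin, rose by 1.23 (limma adjusted p = 7.13e-07) from 13.01 to 18.6 FPKM in WT-veh to 33.7 to 42.5 in WT-DES, while *Ccnd1* fell. Its mean was below that of *Ccnd1* in both groups, on the FPKM scale, which is per length. The Wnt ligand gene *Wnt5a* rose by 1.37 (limma adjusted p = 1.06e-07), from 11.5 to 17.0 FPKM to 32.6 to 43.7. *Wnt11*, whose direction the minimum fixed, rose by 0.67 (limma adjusted p = 0.00133). Among the relatives of *Ccnd1* and *Myc* without that limit, *Ccnd2* was called higher, and *Ccnd3* and *Mycl* were not called.

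Across the 16 samples the 8 genes fell into opposed sets. Pearson's r of log2(FPKM + 1) was 0.92 between *Ltf* and *Sprr2f*, 0.90 between *Greb1* and *Sprr2f* and 0.94 between *Myc* and *Xbp1*, and −0.95 between *Ccnd1* and *Sprr2f*. *Wnt4* had no r above 0.67 in size with another member. Within WT-DES the members did not share an order, since the 3rd sample was the highest of its group for *Ltf*, *Clu* and *Ccnd1* and the lowest for *Sprr2f*, *Greb1*, *Myc* and *Wnt4*. These coefficients share the 4 group means and describe the samples.

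By the same measure, among 12464 genes with a mean of at least 5 FPKM in 1 group, the genes nearest in pattern were *Gsdmd*, *Tcf21* and *Commd8* to *Ltf* (r = 0.98 each), and *Slc40a1*, *Capn13* and *Vtcn1* to *Sprr2f* (r = 0.98 each). *Greb1* was nearest to *Sgk3*, *Nup133* and *Bbox1* (r = 0.96 each), and *Clu* to *Ptgs1*, *Il18* and *Tmem138* (r = 0.95 to 0.93). *Entpd7*, *Shroom1* and *Cabp1* were nearest to *Ccnd1* (r = 0.99 to 0.98), *Lpcat3*, *Upf3a* and *Txndc5* to *Myc* (r = 0.95 each), and *Ppa1*, *Ormdl3* and *Lamtor2* to *Xbp1* (r = 0.99 each). *Wnt4* had no gene with r above 0.9, its nearest being *Kcnn4* at 0.83, whereas 1217 genes passed 0.9 for *Ltf*, 1532 for *Ccnd1* and 2106 for *Xbp1*.

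A wider list of 24 other oestrogen-induced genes also held genes called in both directions. Of the 23 tested, *Pgr*, *Muc1*, *Areg* and *Padi1* had a mean above 1 in WT-DES alone, so that the minimum fixed their direction. Of the other 19, 13 were called higher in WT-DES and 5 lower (*Egf*, *Hspb1*, *Ckb*, *Gjb2* and *Vegfa*), beside 28.9% and 23.9% of all genes. Within αERKO, limma called 0 of the same 19 with DES (1.49% of all genes), and 4 had an unadjusted p under 0.05 (25.3% of all genes). *C3*, a complement protein that oestrogen raises in uterine epithelium, was 24.7, 11.5, 15.02 and 18.5 FPKM in WT-veh and 233, 242, 194 and 221 in WT-DES, a log2 rise of 3.65 (limma adjusted p = 8.79e-08), and 7.01 to 33.1 over the αERKO samples. *Pgr*, the progesterone receptor and a standard readout of ERα activity, was 0.66, 1.00, 0.64 and 0.44 FPKM in WT-veh and 7.03, 13.3, 6.40 and 12.8 in WT-DES (log2 2.64, limma adjusted p = 1.96e-08), and 0.31 to 0.67 over the αERKO samples. *Muc1*, an epithelial mucin, lay between 0.41 and 0.56 FPKM in WT-veh and between 3.59 and 13.6 in WT-DES (log2 2.55, limma adjusted p = 3.96e-07). For *C3*, *Pgr* and *Muc1* every WT-DES sample exceeded every other sample. Between WT-DES and WT-veh alone, 66.7% of all genes had no overlap. *Egf*, the epidermal growth factor gene that oestrogen raises in the uterus, went the other way, from 38.1, 31.8, 25.4 and 28.8 FPKM to 2.43, 2.08, 1.90 and 2.51 (log2 −3.30, limma adjusted p = 6.72e-09), and was 40.8 to 96.9 over the αERKO samples. Macrophage markers, which include no member of this list, summed to 85.8 to 152 FPKM in WT-veh and 447 to 623 in WT-DES, with 6 of 6 called higher (28.9% of all genes). Adipose markers summed to between 114 and 610 FPKM with vehicle and between 483 and 1148 with DES in WT, against 62.5 to 642 and 15.4 to 40.7 in αERKO. *Lep* passed the minimum through WT-DES alone, and 3 of the other 4 were called higher in WT-DES (28.9% of all genes). The part of either cell type in the rise of *C3* was not tested.

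**Figure D5:**
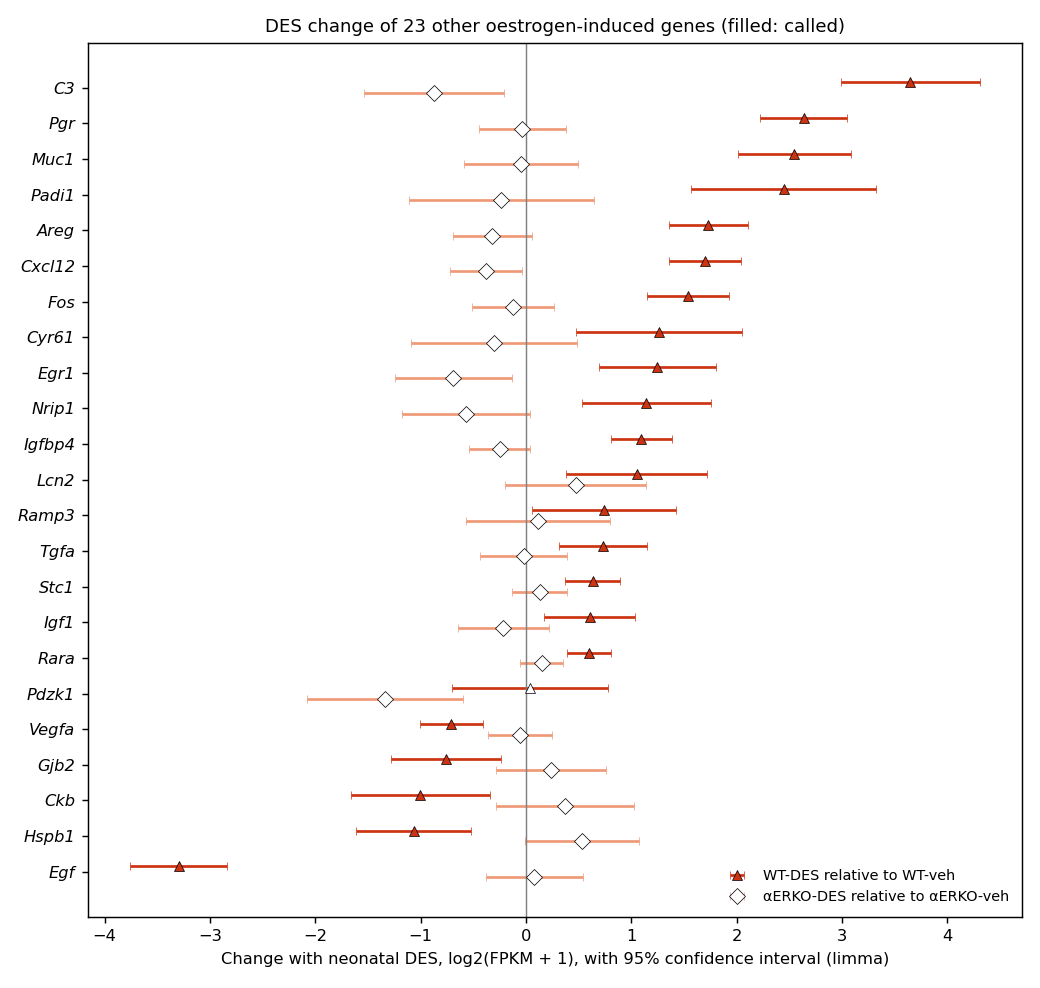
Change of 23 other oestrogen-induced genes with neonatal DES on the log2(FPKM + 1) scale, with its 95% confidence interval from limma, in WT (triangles) and in αERKO (diamonds), filled where called. The WT changes run from 3.65 for C3 to −3.30 for Egf and none is filled in αERKO, where Pgr, Muc1, Areg and Padi1, below 1 FPKM on average, could not be.

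The oestrogen receptor genes were read in the same way. *Esr1* rose with DES in WT by 1.61 (limma adjusted p = 2.69e-06, ratio 3.68). *Esr2*, for oestrogen receptor β, had a mean of 0.748 ± 0.142 (SD, n = 4) FPKM in WT-veh and 0.213 ± 0.149 in WT-DES, below the minimum in all groups, and was not tested. *Gper1*, a membrane oestrogen receptor, had means of 1.05 and 1.14 FPKM and was not called.

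In the 2 comparisons between genotypes, which share samples with those above, the members differed mainly with DES. Relative to WT-DES, αERKO-DES had 7 of the 8 called, against 53.4% of all genes (23.7% higher and 29.6% lower), with *Ccnd1*, *Myc* and *Xbp1* higher (log2 1.78, 0.92 and 0.93) and *Ltf*, *Sprr2f*, *Greb1* and *Clu* lower (log2 −5.19, −6.99, −1.45 and −0.99). Relative to WT-veh, αERKO-veh had 2 called, *Greb1* higher and *Myc* lower, against 7.12% of all genes (4.5% higher and 2.63% lower), and 4 of the 8 had an unadjusted p under 0.05, as had 38.9% of all genes. With its means under 1 in WT-veh and αERKO-DES, *Greb1* could be called here only as higher in αERKO-veh and lower in αERKO-DES. *Ltf*, *Sprr2f*, *Clu* and *Wnt4* overlapped between the vehicle groups, with log2 differences of −0.54, 0.58, −0.29 and −0.03 (limma adjusted p = 0.315 to 0.942), and *Ccnd1* differed by 0.26 (limma adjusted p = 0.0972). Samples did not overlap for 7 of the 8 genes between the DES groups and for 3 of the 8 (*Greb1*, *Myc* and *Xbp1*) between the vehicle groups, beside 66.5% and 29.7% of all genes.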

How the data were processed

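RNA-seq values of 16 SV samples at week 5 (4 groups, 4 samples each) were analysed, with groups and numbers from the sample labels. The authors kept paired 126-nt HiSeq 2000 reads of average quality over 20, used TopHat 2.0.4 for alignment to mm10 (GRCm38), and Cufflinks 2.0.2 for assembly. They deposited FPKM per gene to 2 decimals. Normalization between libraries and the gene annotation of the table are not given in the sources used here, and FPKM hold no counts, so depth is unknown and precision rests on the spread between samples.

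All 31274 genes were read, 15988 whose mean FPKM exceeded 1 in some group were tested, and no pair of columns was identical. limma 3.58.1 in R 4.3.3 was fitted to log2(FPKM + 1) with a mean per group and eBayes with a variance trend. Genes were called where the adjusted p did not exceed 0.05, mean FPKM differed at least 1.5-fold and a compared group had a mean above 1 (for the interaction, the adjusted p and a 1.5-fold difference). The steps were tested on simulated data. The 8 genes, the gene and marker lists, the thresholds and the alternatives were chosen with earlier results of these data known.

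Named are the 8 genes, the receptors, from each other list at most 4 called genes of largest absolute change in WT plus *Pgr*, genes listed as exceptions, marker genes beside a result, and the 3 genes nearest in pattern to each member. A listed gene that falls under this rule is not reported here. Alternatives were a pseudocount of 0.1, no FPKM minimum or 5, median-ratio scaling, quantile normalization, rescaling without the 20 most abundant genes, removal of each sample's trend on transcript length (lowess, span 0.3, lengths from GENCODE M21 for 22557 genes by symbol and 1026 by synonym), sample weights, a model limited to the compared groups, eBayes without the trend, a replicate block, an adjusted p of at most 0.01, no fold threshold and leaving out each sample. Promoters are RefSeq, GRCm38.p6. Tables and plots used pandas 2.3.3, matplotlib 3.10.9 and numpy 2.4.6 under Python 3.11.15. Week 10, uterus and chromatin data were not analysed here.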

Additional observations from a re-analysis of the deposited data

Results flagged for a closer look

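In αERKO-DES the highest *Sprr2f* value, 2.52 FPKM, stood apart from the other 3 samples of the group, with a gap of 0.939 of the whole range. It was 1 of 32 sets of 4 samples examined, and chance sets about 1 in 20 such groups apart.

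For 6 of the 8 genes the DES change differed between the genotypes by a direct test, the interaction in limma. The WT change minus the αERKO change was 4.66 for *Ltf*, 2.15 for *Greb1* and 7.57 for *Sprr2f*, and −1.52 for *Ccnd1*, −1.48 for *Myc* and −1.23 for *Xbp1*, which was −0.31 and not called under quantile normalization. Of all genes tested, 56.4% had a called interaction.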

How the results depend on the processing

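In WT-DES relative to WT-veh the number of the 8 genes called was 7 and ranged from 6 to 8 over the alternatives, and within αERKO it was 0 in every one. The interaction was called for 5 to 8 genes (6 as reported) and αERKO-DES relative to WT-DES for 6 to 8 (7 as reported). Of 507 single-gene values under the alternatives other than leaving out a sample, 483 stayed on the same side of the call, 24 did not and 0 changed sign while called. Leaving out a sample changed 13 further calls. The number called in αERKO-veh relative to WT-veh, 2 as reported, was 1 with no FPKM minimum, with a minimum of 5, with median-ratio scaling, with rescaling without the 20 most abundant genes and at an adjusted p of at most 0.01. It was 0 with quantile normalization and with the length trend removed, and 0 to 2 on leaving out a sample, 0 without WT-veh sample 2 or αERKO-veh sample 2. It was 3 with no fold threshold. The causes were not tested.

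The median log2 change of all genes in WT-DES went from −0.01 to 0.38 on rescaling without the 20 most abundant genes, and *Wnt4* was then called higher (0.62, limma adjusted p = 0.00419). The interaction of *Clu* was called under quantile normalization (2.54), that rescaling (1.26), removal of the length trend (1.02) and sample weights (1.02). *Wnt4* also had a called interaction under quantile normalization (0.60) and that rescaling (0.99), and *Xbp1* lost its call between the DES groups under that rescaling (0.55), as did *Myc* (0.54). Deviations of same-numbered samples had r of −0.21 to 0.28 over pairs of groups, and of −0.02 to 0.28 between the αERKO groups. Differently numbered samples were not compared, so a pairing was not settled, and the numbers were treated as names. With the replicate block the counts were 7 in WT-DES, 0 in αERKO-DES, 2 in αERKO-veh, 7 between the DES groups and 6 for the interaction, as without it. The group means without the highest sample were added after seeing the data. FPKM without counts limit how far differences at values near 0, such as those of *Greb1*, can be read.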
